A study of Gorilla gorilla gorilla with 13 samples.

Results

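The 34 genes described here repair DNA double-strand breaks and interstrand crosslinks. They were chosen by name, as genes of these pathways from BRCA1 to LIG4, and all 34 are rows of the 18137 genes of the hg38 count table. Cells that have copied their DNA can mend a double-strand break by homologous recombination, in which the broken ends are trimmed, the bared strand invades the sister copy and that copy serves as the template. The Fanconi anemia pathway unhooks crosslinks that tie both strands together: a core complex of FANC proteins marks the FANCD2 and FANCI clamp with ubiquitin at a stalled fork, and recombination completes the repair. Non-homologous end joining seals breaks directly, needs no sister copy and works in dividing and non-dividing cells alike. Inherited loss of many of these genes is known for small heads, anemia or cancer, and dividing progenitors of the developing brain are known to rely on them during replication.

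The RNA came from gorilla cerebral organoids, which are brain-like tissue cultures grown from 1 induced pluripotent stem cell line, GC1, and collected at week 8. Cells were sorted into apical radial glia (aRG, 4 libraries), basal radial glia (bRG, 4 libraries), basal intermediate progenitors (bIP, 3 libraries) and BCL11B-positive neurons (N, 2 libraries, of which 1 has a number in the table that matches neither neuron title and is called the unnumbered neuron library). All 13 libraries share line, age and culture, the labels name no treatment or genetic change, and of the sorting antigens they name BCL11B alone. Apical radial glia are the stem cells that line the ventricle, basal radial glia divide away from it, and intermediate progenitors are their committed daughters, which divide to give neurons. The labels tie no library to a separate culture, so a p-value here weighs the scatter among libraries of 1 line, part or all of which can be technical.

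Total counts ran from 5464721 to 12524938 per library. All 34 genes passed the low-count filter, none of their 442 gene-by-library values was 0 and the lowest count was 7. Levels are given as CPM, counts scaled to the size of the library after TMM normalization, which serve to compare 1 gene between libraries and not genes with each other. The label bIP was not fully borne out by its markers. The 7 intermediate progenitor markers summed to 110 to 331 CPM in those libraries, 575 to 746 CPM in bRG and 103 to 153 CPM in N. Among them EOMES read 31.0 to 127 CPM in bIP and 5.78 to 6.74 CPM in N, while NEUROG1 and NEUROG2 had lower means in bIP than in N. The 6 neuron markers summed to 3420 to 3772 CPM in bIP and 5386 to 5574 CPM in N. They summed to 394 to 684 CPM in aRG and 418 to 656 CPM in bRG. The 5 Cajal-Retzius neuron markers summed to 1308 to 3461 CPM in bIP, against 44.2 to 235 CPM over the other libraries. These libraries are therefore called the libraries labelled bIP. Among the bRG libraries, number 3 held the highest value of the 4 for 20 of the 34 genes, and the transcript MALAT1 took 21.3% of its counts on the gorilla build, against 6.35% to 10.8% in the other libraries. Where a repair gene gains a call between bRG and another population without this library, the value without it is given. Calls lost without it are stated, some within a range of adjusted p-values.

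Across the 4 populations, 18 of the 34 genes differed at an adjusted p under 0.05 (edgeR quasi-likelihood F-test, Benjamini-Hochberg over all 16804 genes tested), beside 22.5% of all genes tested. Both resection and dissolution genes, both clamp genes, all 3 strand exchange genes and 4 of 5 genes of the BRCA complexes were called. So were 4 of 7 genes of the Fanconi core complex and its anchor and 2 of the 5 genes of the BCDX2 and CX3 complexes (RAD51B, RAD51C, RAD51D, XRCC2 and XRCC3). Of the 6 sensing and checkpoint genes CHEK2 alone was called, and of the 4 end joining genes none was, with adjusted p-values from 0.101 to 0.768 in the same edgeR fit. The 18 genes had their highest mean in aRG in every case, as did 27 of all 34 and 4129 of the 16804 genes tested. In 17 of them the means fell in the order aRG, bRG, libraries labelled bIP, and FANCG was the exception. That order of means was found in 6 of the 16 genes not called, in 23 of all 34 and in 20.9% of all genes tested. The 18 genes were picked by a test on the same libraries. Only the counts over all 34 genes therefore compare with the shares over all genes tested.

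**Figure D1:**
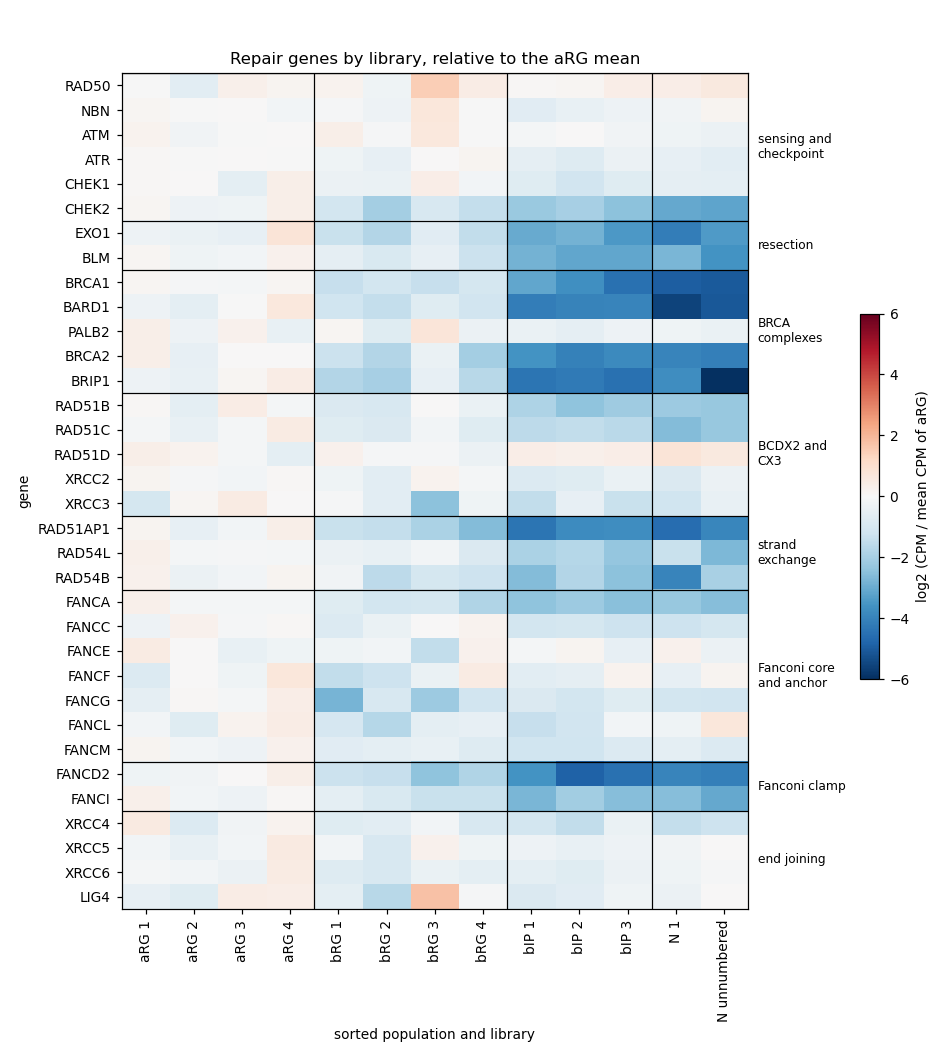
Level of each of the 34 repair genes (rows, by role) in each of the 13 libraries (columns, by population), as the log2 ratio of its CPM to the gene's mean over the aRG libraries (colour scale). The BRCA1, BARD1, BRCA2, BRIP1, clamp and strand exchange rows turn blue from aRG through bRG to bIP and N, while XRCC5 and XRCC6 stay near white and LIG4 is blue in bRG library 2 and red in bRG library 3.

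BRCA1 and its obligate partner BARD1 form a ubiquitin ligase that steers broken ends towards recombination. BRCA1 stood at 127, 111, 108 and 128 CPM in aRG, at 45.8, 56.0, 45.2 and 57.8 CPM in bRG, at 13.7, 9.33 and 5.39 CPM in the libraries labelled bIP, and at 3.80 and 3.64 CPM in N. BARD1 stood at 87.8, 73.2, 107 and 170 CPM in aRG, at 48.5, 41.2, 65.1 and 49.0 CPM in bRG, at 6.27, 6.79 and 7.10 CPM in bIP, and at 2.33 and 3.27 CPM in N. For both genes the libraries of the 4 populations formed 4 ranges that did not overlap, in the order aRG, bRG, bIP, N. BRCA1 had the smallest adjusted p over the populations of the 34 genes, 3.51e-08, and BARD1 the next, 3.63e-08 (edgeR).

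BRCA2 acts on the bared single strand during recombination, BRIP1 is a helicase bound by BRCA1, and PALB2 bridges BRCA1 and BRCA2. BRCA2 had means of 177 ± 40.6 CPM in aRG (SD, n = 4), 75.5 ± 40.9 in bRG (n = 4), 12.6 ± 1.94 in bIP (n = 3) and 10.7 ± 0.783 in N (n = 2). BRIP1 averaged 91.6 ± 26.4, 36.2 ± 20.0, 4.41 ± 0.326 and 4.08 ± 3.93 CPM in the same order. In bIP these means were 7.10% (BRCA2) and 4.82% (BRIP1) of those in aRG, whereas PALB2 read 34.7 ± 9.49, 36.0 ± 16.2, 26.1 ± 2.06 and 27.7 ± 2.09 CPM. The 4 populations overlapped in PALB2, and its adjusted p over the populations was 0.652 (edgeR).

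The nuclease EXO1 trims broken ends and the helicase BLM helps to dissolve recombination intermediates. BLM stood at 79.7, 60.8, 63.5 and 85.1 CPM in aRG, at 49.0, 38.0, 52.0 and 29.9 CPM in bRG, at 10.0, 8.38 and 8.36 CPM in bIP, and at 10.9 and 6.06 CPM in N. The aRG and bRG ranges were apart from each other and from bIP and N, which overlapped. EXO1 stood at 15.9, 15.1, 14.1 and 33.6 CPM in aRG, at 7.86, 5.78, 12.1 and 7.14 CPM in bRG, at 2.39, 2.76 and 1.80 CPM in bIP, and at 1.10 and 1.87 CPM in N, with the same 3 ranges.

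Of the strand exchange genes, RAD51AP1 promotes strand pairing, and RAD54L and RAD54B are motor proteins that drive strand exchange. RAD51AP1 stood at 64.9, 42.1, 51.9 and 74.9 CPM in aRG, at 23.1, 21.5, 15.7 and 9.71 CPM in bRG, at 2.84, 4.24 and 4.40 CPM in bIP, and at 2.45 and 3.82 CPM in N. RAD54L stood at 62.1, 46.7, 47.7 and 46.0 CPM in aRG, at 39.3, 37.3, 44.7 and 28.0 CPM in bRG, at 13.4, 15.6 and 10.2 CPM in bIP, and at 19.7 and 7.93 CPM in N. RAD54B, with fewer counts, averaged 13.4 ± 2.49, 7.04 ± 3.16, 2.86 ± 0.923 and 2.15 ± 1.83 CPM (SD, n = 4, 4, 3 and 2). All 3 were low in bIP and N, but only RAD51AP1 was called between bRG and aRG.

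RAD51B, RAD51C, RAD51D, XRCC2 and XRCC3 assemble into the BCDX2 and CX3 complexes, which serve recombination, and they differed among themselves. RAD51B stood at 58.5, 37.7, 76.3 and 52.6 CPM in aRG, at 30.4, 28.6, 57.2 and 43.2 CPM in bRG, at 15.7, 10.7 and 13 CPM in bIP, and at 12.4 and 11.7 CPM in N. RAD51C stood at 47.3, 37.0, 46.6 and 71.5 CPM in aRG, at 30.9, 27.7, 45.7 and 30.4 CPM in bRG, at 16.9, 17.9 and 16.4 CPM in bIP, and at 8.46 and 10.4 CPM in N. For both, aRG and bRG overlapped and lay above all bIP and N libraries. RAD51D had its highest mean in N, with 136 and 121 CPM, against 102, 91.5, 73.1 and 53.0 CPM in aRG, 95.4, 76.5, 76.0 and 62.7 CPM in bRG and 107, 97.3 and 106 CPM in bIP. Both N values lay above every other library, but the difference did not pass the test over the populations (adjusted p = 0.140, edgeR). XRCC2 ranged from 101 to 127 CPM in aRG, from 73.3 to 133 in bRG, from 65.5 to 85.6 in bIP and from 63.6 to 88.6 in N (adjusted p = 0.156, edgeR). On the gorilla build, where XRCC2 held fewer counts, it was called over the populations. XRCC3 ranged from 6.14 to 18.1 CPM in aRG, 2.36 to 12.3 in bRG, 4.63 to 9.01 in bIP and 5.64 to 9.33 in N (adjusted p = 0.444, edgeR).

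FANCD2 and FANCI make up the clamp that closes on DNA when the core complex ubiquitinates it. FANCD2 stood at 116, 122, 140 and 178 CPM in aRG, at 57.2, 53.6, 26.2 and 39.6 CPM in bRG, at 11.5, 4.77 and 6.20 CPM in bIP, and at 8.82 and 8.21 CPM in N. FANCI stood at 246, 172, 159 and 206 CPM in aRG, at 129, 105, 77.2 and 78.6 CPM in bRG, at 29.6, 46.5 and 33.5 CPM in bIP, and at 32.8 and 23.4 CPM in N. For both genes aRG, bRG and the remaining libraries were 3 separate ranges.

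Upstream of the clamp, FANCA and FANCG form a subcomplex of the core, FANCL is its ubiquitin ligase, FANCC, FANCE and FANCF form another arm, and FANCM anchors the complex to DNA. FANCA stood at 316, 233, 237 and 237 CPM in aRG, at 154, 120, 121 and 73.4 CPM in bRG, at 48.7, 57.3 and 45.5 CPM in bIP, and at 53.3 and 43.9 CPM in N. FANCG differed in pattern, with 55.8, 85.9, 76.4 and 109 CPM in aRG, 12.0, 41.4, 18.2 and 36.6 CPM in bRG, 44.8, 38.2 and 49.4 CPM in bIP, and 38.7 and 36.8 CPM in N. Its lowest mean was in bRG, where 3 of the 4 libraries lay under every bIP and N value. FANCM averaged 111 ± 19.4 CPM in aRG (SD, n = 4), 72.9 ± 7.90 in bRG (n = 4), 53.2 ± 8.48 in bIP (n = 3) and 69.3 ± 7.96 in N (n = 2). FANCC averaged 41.8 ± 6.71, 36.8 ± 11.1, 19.1 ± 1.23 and 19.0 ± 1.90 CPM in the same order.

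The remaining core genes were not called. FANCL stood at 46.6, 31.7, 59.5 and 70.1 CPM in aRG, at 25.6, 16.0, 34.9 and 37.1 CPM in bRG, at 19.7, 23.2 and 45.8 CPM in bIP, and at 43.8 and 83.9 CPM in N. Both neuron libraries lay above bRG and overlapped aRG and bIP, and its adjusted p over the populations was 0.0821 (edgeR). FANCE ranged from 33.2 to 63.8 CPM in aRG, 16.0 to 53.5 in bRG, 31.6 to 50.7 in bIP and 35.8 to 53.4 in N. FANCF ranged from 14.3 to 40.4 CPM in aRG, 9.06 to 35.3 in bRG, 16.3 to 29.6 in bIP and 17.9 to 28.2 in N. All 4 ranges of FANCE and of FANCF overlapped (adjusted p = 0.897 and 0.845, edgeR).

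Among the sensors and kinases, RAD50 and NBN belong to the complex that tethers broken ends, ATM and ATR are the kinases that signal breaks and stalled forks, and CHEK1 and CHEK2 relay those signals to the cell cycle. CHEK2 stood at 76.1, 56.5, 58.9 and 90.7 CPM in aRG, at 33, 17.1, 36.8 and 26.4 CPM in bRG, at 14.9, 17.5 and 12.8 CPM in bIP, and at 8.46 and 7.93 CPM in N. Its aRG values lay above all others and its N values below all others, while bRG and bIP overlapped. CHEK1 stood at 113, 111, 73.2 and 138 CPM in aRG, at 84.9, 83.6, 145 and 96.2 CPM in bRG, at 65.2, 49.4 and 66.2 CPM in bIP, and at 75.4 and 72.1 CPM in N, with bIP below all others (adjusted p over the populations 0.0765, edgeR). ATM ranged from 209 to 278 CPM in aRG, 235 to 377 in bRG, 213 to 246 in bIP and 189 to 205 in N. ATR ranged from 106 to 113 CPM in aRG, 76.8 to 122 in bRG, 64.0 to 84.6 in bIP and 71.2 to 77.8 in N. Neither kinase was called over the populations, with adjusted p of 0.336 for ATM and 0.163 for ATR (edgeR). RAD50 ranged from 20.3 to 39.0 CPM in aRG, 25.8 to 86.4 in bRG, 32.7 to 40.9 in bIP and 41.1 to 46.4 in N. NBN ranged from 49.8 to 59.8 CPM in aRG, 45.2 to 88.7 in bRG, 34.6 to 44.5 in bIP and 48.3 to 62.3 in N. Both read highest in bRG library 3 (adjusted p over the populations 0.499 and 0.377, edgeR).

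None of the 4 end joining genes passed the edgeR test over the populations with all 13 libraries. DESeq2 called XRCC4 over the populations, and edgeR without bRG library 3 called XRCC6. XRCC5 and XRCC6 encode the Ku ring that threads onto broken ends, and XRCC4 and LIG4 encode the ligase complex that seals them. XRCC5 stood at 168, 138, 169 and 274 CPM in aRG, at 168, 95.4, 222 and 159 CPM in bRG, at 151, 138 and 152 CPM in bIP, and at 162 and 191 CPM in N. XRCC6 stood at 255, 248, 212 and 381 CPM in aRG, at 158, 139, 206 and 182 CPM in bRG, at 181, 165 and 216 CPM in bIP, and at 229 and 259 CPM in N. In XRCC5 both N values lay above the bIP values and within the ranges of aRG and bRG, and XRCC6 had all 4 bRG values below its aRG values. LIG4 ranged from 24.3 to 55.6 CPM in aRG, 22.4 to 34.2 in bIP and 31.5 to 41.2 in N, while bRG spread from 12.9 to 135 CPM, the top value being library 3. XRCC4 stood at 23.1, 9.13, 13.7 and 18.5 CPM in aRG, at 9.74, 10.3, 14.4 and 8.38 CPM in bRG, at 7.61, 5.83 and 12.2 CPM in bIP, and at 6.01 and 6.81 CPM in N. Its N values lay below those of aRG and bRG and within those of bIP.

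**Figure D2:**
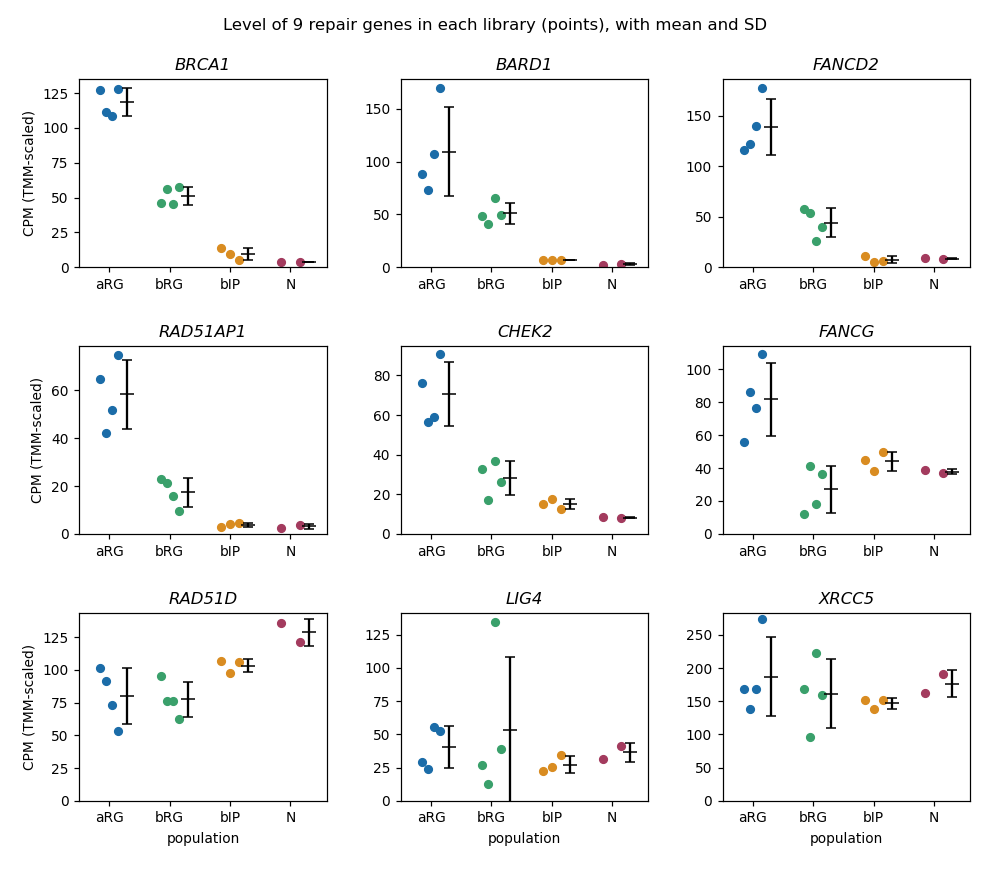
CPM (vertical axis, linear from 0) of 9 repair genes in the 4 sorted populations (horizontal axis), each point a library, with the mean as a line and the SD as a bar, which for LIG4 in bRG is cut at 0. BRCA1, BARD1, FANCD2 and RAD51AP1 step down from aRG to bRG to bIP and N, FANCG is lowest in bRG, RAD51D is highest in N, and the aRG and bRG points of XRCC5 and LIG4 overlap with each other and with bIP and N.

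Between bRG and aRG, 7 of the 34 repair genes were lower in bRG, beside 1.23% of all genes tested, and 0 were higher, beside 0.0298%. Those 7 came from 5 of the 8 roles: FANCA, FANCG, FANCD2 and FANCI of crosslink repair, BRCA1, RAD51AP1 and the kinase CHEK2. FANCD2 was 3.15-fold lower (log2 fold change -1.65, SE 0.299, adjusted p = 0.00532), RAD51AP1 3.35-fold lower (-1.74, SE 0.324, adjusted p = 0.0066) and FANCG 3.02-fold lower (-1.59, SE 0.338, adjusted p = 0.0188), all by edgeR. The other 4 were 2.01-fold lower (FANCI, adjusted p = 0.0481, edgeR) to 2.49-fold lower (CHEK2, adjusted p = 0.0179, edgeR). In all 7 the lowest aRG library lay above the highest bRG library. Such separation was found in 14 of the 34 repair genes, beside 4% of all genes tested, and the opposite separation in 0, beside 1.51%. The median log2 fold change of the 34 genes was -0.60 and that of all genes tested 0.04. At an unadjusted p under 0.05, 16 were lower, beside 6.19% of all genes tested, and 0 higher, beside 3.28% (edgeR).

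BARD1 at -1.10 (adjusted p = 0.0551) and BRCA2 at -1.23 (adjusted p = 0.0641) narrowly missed the threshold, and BRIP1 at -1.34 (adjusted p = 0.177) missed it with a wide spread (edgeR). With bRG library 3 left out, they stood at -1.24, -1.66 and -1.80, and all 3 were called (adjusted p = 0.0238, 0.00107 and 0.0167, edgeR). BARD1 was also called without aRG library 2 (-1.25, adjusted p = 0.0289, edgeR). With all 13 libraries, DESeq2 called all 3, at adjusted p of 0.0074 for BARD1, 0.01 for BRCA2 and 0.0455 for BRIP1. The edgeR count of genes lower in bRG varied with the library removed. It was 2 without aRG library 4, 3 without aRG library 1, 4 without bRG library 4 and 9 without bRG library 3. These counts are given without the share over all genes tested in the same removal. Whether they varied more than that share was not tested. The call of FANCD2 held in every one of the 8 removals, but its size differed between sets of libraries: -1.08 with those numbered 1 and 2 alone, where the call was lost (adjusted p = 0.164), and -2.27 with those numbered 3 and 4 alone, where it was called (edgeR). Among the 8 removals, the calls of RAD51AP1 and FANCG were lost only without aRG library 4, with adjusted p of 0.051 and 0.12 (edgeR). Both calls were also lost with the libraries numbered 1 and 2 alone and with those numbered 3 and 4 alone. That of FANCG was lost too with only the 2 populations fitted. FANCA lost its call without aRG library 1 or bRG library 4, with adjusted p of 0.0621 and 0.0533. BRCA1 lost it without aRG library 1, aRG library 4 or bRG library 1, at 0.0591 to 0.0916. CHEK2 lost it without aRG library 1, aRG library 4, bRG library 2 or bRG library 4, at 0.0573 to 0.0978. FANCI kept it only without bRG library 1, and its other adjusted p-values ran from 0.0549 to 0.177 (edgeR).

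For the genes not called, the 95% intervals of the log2 fold change between bRG and aRG set how large a difference these libraries leave possible. They ran from -0.51 to 0.44 for RAD51D, from -0.17 to 0.69 for ATM, from -0.76 to 0.33 for XRCC5 and from -0.60 to 0.70 for PALB2. For LIG4 the interval was -0.67 to 1.46, and for RAD50 -0.08 to 1.30. A change of 2-fold, which is 1 on the log2 scale, was thus outside the interval for RAD51D, ATM, XRCC5 and PALB2 and inside it for LIG4 and RAD50.

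Between the libraries labelled bIP and aRG, 18 of the 34 repair genes were lower, beside 9.98% of all genes tested, and 0 were higher, beside 8.47%. The median log2 fold change was -1.05 over the 34 genes and -0.04 over all genes tested. The largest falls were in BRIP1, 20.7-fold (log2 -4.37, SE 0.525, adjusted p = 9.3e-06), FANCD2, 18.7-fold (-4.23, SE 0.381, adjusted p = 4.15e-07) and BARD1, 16.2-fold (-4.02, SE 0.345, adjusted p = 2.52e-07), all by edgeR. RAD51AP1 fell 15.1-fold, BRCA2 14.1-fold, BRCA1 12.6-fold, EXO1 8.49-fold and BLM 8.11-fold. FANCI, FANCA, CHEK2, RAD54B, RAD51B and RAD54L fell between 3.87-fold and 5.35-fold. The smallest called falls were RAD51C (2.96-fold), FANCC (2.19-fold), FANCM (2.09-fold) and CHEK1 (1.8-fold, adjusted p = 0.0323, edgeR). CHEK1 lost its call in 6 of 7 removals of 1 library, the exception being aRG library 3, with adjusted p of 0.0597 to 0.156 (edgeR). The calls of the other 17 genes held in all 7 removals. Of the 4 end joining genes none was called, and the interval of XRCC5 ran from -0.94 to 0.24. RAD51D had a positive fold change, 0.37 with an interval from -0.14 to 0.88.

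**Figure D3:**
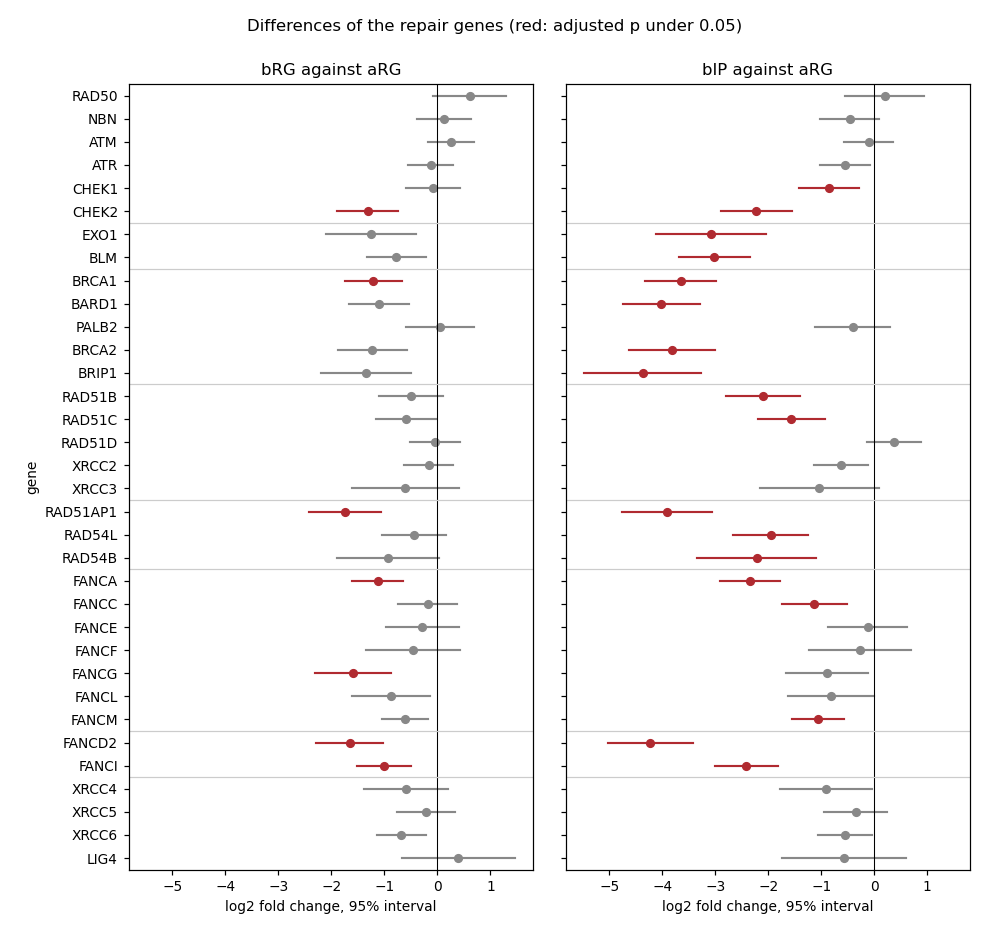
Log2 fold change (horizontal axis, common to both panels) of each of the 34 repair genes between bRG and aRG (left) and between the libraries labelled bIP and aRG (right), with its 95% interval. Red marks the 7 and the 18 genes called at an adjusted p under 0.05. Both comparisons use the same 4 aRG libraries.

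Between the libraries labelled bIP and bRG, 15 repair genes were lower, beside 8.44% of all genes tested, and 0 were higher, beside 8.25%. The median log2 fold change was -0.84, and -0.09 over all genes tested. BRIP1 fell 8.19-fold, BARD1 7.56-fold, BRCA2 6.02-fold, FANCD2 5.94-fold and BRCA1 5.44-fold (adjusted p from 7.87e-06 to 0.000298, edgeR). BLM, RAD51AP1, EXO1, RAD51B, RAD54L, FANCI and FANCA fell between 2.32-fold and 4.74-fold. RAD51C, FANCC and CHEK2 fell less than 2-fold and were the least firm. Their calls were lost in 4, 4 and 6 of 7 removals of 1 library, with adjusted p of 0.0513 to 0.0968 for RAD51C, 0.0887 to 0.111 for FANCC and 0.0679 to 0.172 for CHEK2 (edgeR). Each removal of a bIP library ended all 3 calls. Of the bRG libraries, removing number 1 ended that of CHEK2, number 3 those of RAD51C and CHEK2, and number 4 those of FANCC and CHEK2. EXO1 lost its call only without bIP library 3 (adjusted p = 0.0609, edgeR). CHEK1 (-0.76, adjusted p = 0.0584) was called without bRG library 2 (-0.85, adjusted p = 0.0429, edgeR). FANCG was 0.70 higher on the log2 scale in bIP, with an interval from -0.05 to 1.45, and did not pass the test (adjusted p = 0.209, edgeR).

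Between N and the libraries labelled bIP, 0 of the 34 genes were called lower, beside 0.113% of all genes tested, and 0 higher, beside 0%. The median log2 fold change was -0.0021, with 17 genes on each side of 0, and that of all genes tested was 0.07. At an unadjusted p under 0.05, 4 genes were lower, beside 4.56% of all genes tested, and 1 was higher, beside 2.07% (edgeR). The smallest adjusted p belonged to BRCA1, at -1.34 (SE 0.367, adjusted p = 0.294, edgeR), followed by BARD1 at -1.25 (adjusted p = 0.43). DESeq2 called 1 gene, BRCA1, at -1.39 (adjusted p = 0.0402). With 3 libraries against 2, intervals were wide: that of FANCD2 ran from -0.64 to 1.04 and that of LIG4 from -0.96 to 1.78.

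Between N and bRG, 14 genes were lower, beside 9.13% of all genes tested, and 0 higher, beside 10.6%. Between N and aRG, 16 were lower, beside 9.37%, and 0 higher, beside 10.4%. The median log2 fold changes of the repair genes were -0.65 and -1.13, and those of all genes tested -0.09 and -0.05. The steepest were BARD1, 18-fold lower in N than in bRG and 38.7-fold lower than in aRG, and BRCA1, 13.7-fold and 31.8-fold lower (adjusted p of at most 3.09e-06 in each, edgeR). The 14 genes were lower by 2.41-fold (FANCA) or more, and the 16 by 2.2-fold (FANCC) or more. RAD51D was 1.61-fold higher in N than in aRG (log2 0.69, SE 0.27, adjusted p = 0.0837) and 1.66-fold higher than in bRG (adjusted p = 0.0664), neither past the threshold (edgeR). Without aRG library 1 the first rose to 0.83 and was called (adjusted p = 0.0493, edgeR). FANCL was 2.24-fold higher in N than in bRG, also short of the threshold (log2 1.17, SE 0.414, adjusted p = 0.0562, edgeR). It was called without bRG library 3 (1.28, adjusted p = 0.0358) and without N library 1 (1.56, adjusted p = 0.05, edgeR). Against aRG, its log2 fold change in N was 0.30, with an interval from -0.59 to 1.18.

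Some neuron calls depended on 1 of the 2 neuron libraries. Without N library 1, the calls of EXO1 against bRG (adjusted p = 0.0844) and of RAD54B (0.117) and FANCC (0.184) against aRG were lost. Without the unnumbered one, RAD54L against bRG (0.234) and aRG (0.0659), FANCC against aRG (0.117), and RAD51B (0.0577) and FANCA (0.0984) against bRG were lost. FANCC against aRG was also lost without aRG library 2 (0.0571, all by edgeR). Other falls passed the threshold only when a library was left out. RAD54B against bRG, at -1.67 (adjusted p = 0.0655), was called without bRG library 3 (-1.71, adjusted p = 0.0427) and without the unnumbered neuron library (-3.00, adjusted p = 0.0354, edgeR). FANCC against bRG, at -0.95 (adjusted p = 0.0541), was called without bRG library 1 (-1.11, adjusted p = 0.0267, edgeR). XRCC4 against aRG, at -1.32 (adjusted p = 0.0666), was called without aRG library 2 (-1.52, adjusted p = 0.0414, edgeR).

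A further 70 genes of the same pathways were tested, from a list of 75 that includes the end resection and fork genes and the shieldin and RPA complexes. Of these, 20 differed over the 4 populations, beside 22.5% of all genes tested. Between bRG and aRG, 5 of the 70 were lower, beside 1.23%, and 0 higher, beside 0.0298%, with a median log2 fold change of -0.19. They were POLQ, GEN1, UBE2T, TIMELESS and DNA2. POLQ is the polymerase of theta-mediated end joining (-1.88, adjusted p = 0.00044), and GEN1 cuts Holliday junctions (-1.86, adjusted p = 0.000935, both by edgeR). UBE2T is the ubiquitin-conjugating enzyme that works with FANCL (-2.14, adjusted p = 0.0103, edgeR). The fork protein TIMELESS stood at -1.49 (adjusted p = 0.0175) and the nuclease DNA2 at -1.48 (adjusted p = 0.0229, both by edgeR). Without aRG library 4, 2 of the 70 were called, and without bRG library 1 or 4, 3 each. Here and in the next paragraph, counts after a removal are given without the share over all genes tested in that removal. Whether they varied more than that share was not tested. Without aRG library 4, UBE2T (adjusted p = 0.0882), TIMELESS (0.12) and DNA2 (0.141) lost their calls (edgeR). TIMELESS also lost its call without bRG library 1 (0.0542) or 4 (0.0747), and DNA2 without bRG library 1 (0.0899), 2 (0.0857) or 4 (0.0956). The calls of POLQ and GEN1 held in all 8 removals. With the libraries numbered 3 and 4 alone, all 5 genes lost their calls, POLQ at -1.98 (adjusted p = 0.0628) and GEN1 at -2.01 (adjusted p = 0.0692, edgeR).

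POLQ averaged 197 ± 44.9 CPM in aRG (SD, n = 4), 53.8 ± 9.19 in bRG (n = 4), 9.55 ± 2.17 in bIP (n = 3) and 6.88 ± 2.74 in N (n = 2). Between the libraries labelled bIP and aRG, 17 of the 70 were lower, beside 9.98% of all genes tested, and 0 higher, beside 8.47%, with a median of -0.32, and 11 were lower without bIP library 1. The 3 smallest p-values were those of POLQ (-4.37), CLSPN, the adaptor that passes the ATR signal to CHEK1 (-4.35), and GEN1 (-4.06), at adjusted p of 7.17e-08, 7.17e-08 and 2.29e-07 (edgeR). The single call in the other direction between bIP and bRG was MAD2L2, a shieldin subunit that shields ends from resection (0.99, adjusted p = 0.0415, edgeR), where 10 of the 70 were lower, beside 8.44% of all genes tested, and 6 without bIP library 3. MAD2L2 kept that call in 1 of 7 removals, that of bRG library 2, and stood at adjusted p of 0.0505 to 0.164 in the others (edgeR). MAD2L2 averaged 53.3 ± 20.7, 31.1 ± 7.13, 61.8 ± 13.4 and 87.8 ± 20.0 CPM in aRG, bRG, bIP and N. Between N and bRG, 9 of the 70 were lower, beside 9.13% of all genes tested, and 3 higher, beside 10.6%: MAD2L2 (1.5, adjusted p = 0.00535), the nuclease subunit MUS81 (0.86, adjusted p = 0.0382) and FAAP100, a partner of the Fanconi core (1.02, adjusted p = 0.0467, edgeR). The 9 became 5 without N library 1 and 4 without the unnumbered neuron library. MAD2L2 lost this call only without the unnumbered neuron library (adjusted p = 0.0968). MUS81 lost it without either neuron library or without bRG library 1 or 4 (0.0533 to 0.282), and FAAP100 without N library 1 or bRG library 1, 3 or 4 (0.0577 to 0.45, edgeR).

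Proliferation genes moved in the same order over the libraries. The mean log2 CPM of the 34 repair genes was 5.85 to 6.29 in aRG, 5.16 to 5.66 in bRG, 4.45 to 4.51 in bIP and 4.38 to 4.41 in N. A list of 35 S phase genes, with no repair gene in it, stood at 6.21 to 6.81, 5.47 to 5.77, 3.91 to 4.05 and 3.86 to 3.97. A list of 40 G2/M genes stood at 7.26 to 8.30, 5.25 to 5.38, 3.12 to 3.28 and 2.85 to 2.94. Between bRG and aRG, 7 of 35 S phase genes and 38 of 40 G2/M genes were lower, beside 1.23% of all genes tested. The medians of the lists were -0.73 and -2.49, and that of all genes tested 0.04. Between bIP and aRG, 30 and 39 were lower, beside 9.98% of all genes tested. Here the medians were -2.61 and -4.86, and that of all genes tested -0.04. For each list the 4 populations did not overlap, except that S phase values of bIP and N did. In bulk RNA, fewer cells of a type and less RNA per cell cannot be told apart. The part of cell division in the differences of the repair genes was not tested.

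**Figure D4:**
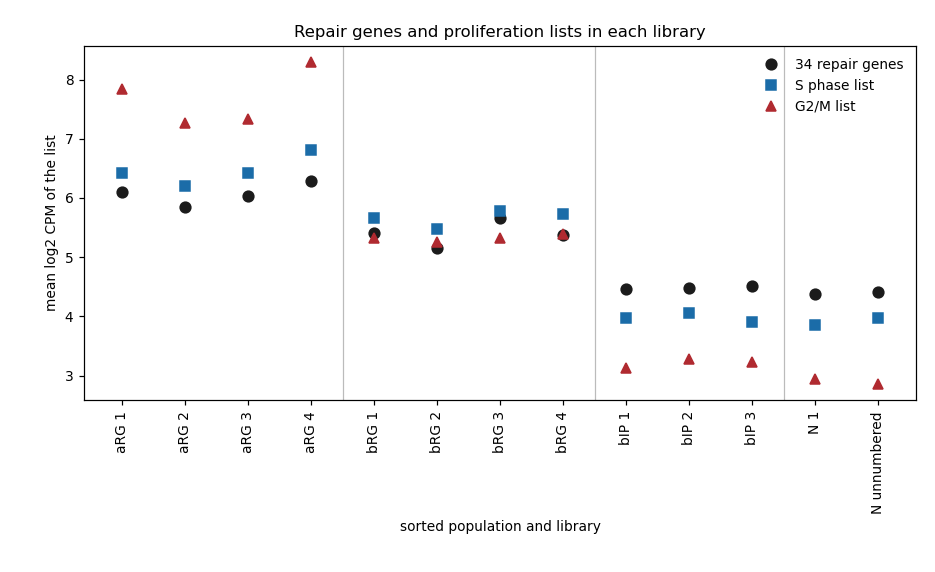
Mean log2 CPM (vertical axis) of the 34 repair genes, the 35 S phase genes and the 40 G2/M genes in each of the 13 libraries (horizontal axis, by population). All 3 lists step down from aRG to bRG and again to bIP and N. The G2/M list spans the widest range and the repair list the narrowest.

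Other marker levels in aRG and bRG were as follows. The 7 intermediate progenitor markers summed to 233 to 495 CPM in aRG, below the 575 to 746 CPM of bRG, and EOMES, the defining one, averaged 143 ± 84.4 and 367 ± 92.9 CPM (SD, n = 4 each). The 6 basal radial glia markers summed to 1693 to 2272 CPM in aRG and 1193 to 2127 CPM in bRG. Among them HOPX averaged 150 ± 67.4 CPM in aRG and 65.7 ± 29.1 CPM in bRG, and MOXD1 110 ± 41.0 and 67.5 ± 6.93 CPM. FAM107A, LIFR and PTPRZ1 also had lower means in bRG, while TNC averaged 86.7 ± 16.9 and 91.0 ± 23.5 CPM. The ranges of aRG and bRG overlapped in each of the 6, so these markers did not set bRG above aRG. The 5 choroid plexus markers summed to 1594 to 7768 CPM in aRG and 199 to 1231 CPM in bRG, against 74.1 to 299 CPM in the remaining libraries. The 6 mesenchyme markers summed to 108 to 334 CPM in aRG and 69.6 to 97.4 CPM in bRG, and none of the markers of either list was under 1 CPM in all libraries. Their part in the differences between bRG and aRG was not tested. The 9 radial glia markers summed to 3126 to 4204 CPM in aRG and 2436 to 4359 CPM in bRG, against 124 to 168 CPM in bIP and N.

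On the counts of the gorilla build, 17 of the 18 genes called over the populations were called, and XRCC2 was called in addition. Of the 34 genes, 4 held under 120% of their hg38 count there, where all genes together held 211%. XRCC2 held 14.0%, 1494 counts against 10675. Its fold change between bIP and aRG was -2.07 (adjusted p = 0.0118) on the gorilla build against -0.64 (adjusted p = 0.0796) on hg38 (edgeR). Between N and aRG, XRCC2 was called on the gorilla build (-2.17, adjusted p = 0.0255, edgeR) and not on hg38. BRCA1 between bRG and aRG stood at -1.29 on the gorilla build and lost its call (adjusted p = 0.0588, edgeR). Calls lost there were also those of CHEK1 (adjusted p = 0.12) and FANCC (0.0527) between bIP and aRG, of CHEK2 (0.201), FANCC (0.209) and RAD51C (0.0968) between bIP and bRG, and of FANCC between N and aRG (0.0551, all by edgeR). In the gorilla RefSeq annotation, 13 of the 34 genes overlap another gene of the count table, among them CHEK2 with HSCB, FANCA with ZNF276, FANCI with POLG, RAD51AP1 with DYRK4 and NBN with DECR1. No source used here says whether reads were counted by strand, so the values of these 13 genes may hold reads of their neighbours.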

How the data were processed

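RNA of 10000 sorted cells per library was made into Smart-seq2 libraries with 12 to 17 PCR cycles, without molecular identifiers, per the labels' protocols. The authors deposited 2 tables of raw counts per gene symbol, not normalized: 18137 genes on hg38 and 60583 named genes on gorGor6, a build known from the table's name alone. STAR and hg38 are named per the submitters' processing notes. Counter, annotation and strand setting are each not given in the sources used here. On gorGor6, 1 row has a blank name, with 0.00351% to 0.00768% of counts, and was dropped.

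The hg38 counts were fitted with edgeR 4.0.16 in R 4.3.3 (TMM, filterByExpr with a minimum count of 10, a mean per population, all 13 libraries in 1 quasi-likelihood fit). Of the genes, 16804 were tested, with Benjamini-Hochberg adjustment over all of them and a threshold of 0.05. CPM are TMM-scaled, and log2 CPM have a prior count of 2. The 34 genes and all gene lists were chosen with earlier results of these data known. Every one of the 34 genes was described by role. Values in every library were given for the 2 genes per role with the smallest p over the populations and for genes called between bRG and aRG, and values, means or ranges per population for the rest. Of the related genes, those called between bRG and aRG, the 3 smallest p-values among falls between bIP and aRG and the rises were named. The rises in other comparisons were named after their values were seen. The list of related genes was shortened by 1 gene, which is not reported here. No library was a copy of another (chi-square per degree of freedom 11.1 to 98.0 between replicates). Whether the numbers of the libraries pair them was not settled. Deviations of same-numbered libraries correlated at -0.0127 to 0.387 over bRG and aRG. The values were 0.040 to 0.143 over bIP and aRG and 0.0327 to 0.117 over bIP and bRG. The same number gave the highest correlation for 2 of 4, 1 of 3 and 0 of 3 libraries in that order. DESeq2 1.42.0, its size factors, no filter, the gorGor6 table, a replicate block, the 2 populations alone, the libraries numbered 1 and 2 or 3 and 4 alone and the removal of each library were the alternatives. Total counts limit precision, and intervals cover the spread between libraries.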

Additional observations from a re-analysis of the deposited data

Results flagged for a closer look

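In 4 of the 68 groups of 4 libraries tested (34 genes in aRG and in bRG), 1 library stood apart from the other 3 by more than the Dixon criterion allows, where chance flags about 1 group in 20. EXO1 read 33.6 CPM in aRG library 4, and the other aRG libraries 14.1 to 15.9 CPM. RAD54L read 62.1 CPM in aRG library 1, against 46.0 to 47.7 CPM in the others. FANCA read 316 CPM in aRG library 1, against 233 to 237 CPM. BRIP1 read 66.0 CPM in bRG library 3, against 22.7 to 28.6 CPM in the other bRG libraries.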

How the results depend on the processing

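No called difference of a repair gene reversed in any alternative: of 942 comparisons of a called value with an alternative, 860 kept the call and 82 lost it. Between bRG and aRG, 7 genes were lower in the full fit, 4 with only the 2 populations fitted, 3 with the libraries numbered 1 and 2 (BRCA1, with BRIP1 and BRCA2, which the full fit did not call) and 1, FANCD2, with those numbered 3 and 4. Removing each library gave 2 to 9 genes lower there, 17 to 18 between bIP and aRG, 11 to 16 between bIP and bRG, 12 to 15 between N and bRG and 14 to 16 between N and aRG. Genes called higher numbered 0 to 1 in removals for N against bRG (FANCL) and for N against aRG (RAD51D). The gorGor6 table and DESeq2 each called 1 gene, FANCL, higher in N than in bRG, and DESeq2 called 1, BRCA1, lower in N than in bIP. DESeq2 also called BARD1, BRCA2 and BRIP1 lower in bRG than in aRG, which the full edgeR fit did not. Whether the library numbers pair the samples was not settled. With the replicate block, 10 genes were lower between bRG and aRG, 17 between bIP and aRG and 13 between bIP and bRG, where 1, FANCG, was higher (1.03, adjusted p = 0.0353, edgeR). The 18 genes that differed over the 4 populations remained called in each of the 13 removals. CHEK1 gained this call without aRG library 3, CHEK1 and XRCC6 without bRG library 3, and FANCL without bIP library 3. DESeq2 added XRCC4, FANCL and CHEK1 to the 18. Leaving out bRG library 3, an alternative chosen after seeing the data, gave 19 genes lower between bIP and aRG, 19 between N and aRG and 0 between N and bIP. Counts in these alternatives are given without the share over all genes tested. Of the 442 values, 2 rested on fewer than 10 counts.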
